A study of Mus musculus with 6 samples.

Results

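The 10 liver endothelial marker genes Stab1, Stab2, Lyve1, Clec4g, Oit3, Kdr, Pecam1, Vwf, Cd34 and Cdh5 were followed in whole-liver RNA. They were taken by symbol from the 45777 genes of the deposited read count table, and all 10 were present and had enough reads to be tested. Pak4_KO and WT livers were compared, to see how loss of the kinase Pak4 from hepatocytes is accompanied by changes in these non-hepatocyte transcripts. The Pak4_KO group held 3 libraries from mice with Alb-Cre and both Pak4 alleles floxed (Pak4 flox/flox), in which Cre is driven by the albumin promoter and so acts in hepatocytes. The WT group held 3 libraries from Pak4 flox/flox mice whose label names no Cre transgene. The presence of Cre and the loss of Pak4 therefore cannot be told apart in this comparison. All mice were of the C57BL/6 strain and 10 weeks old, and both groups carry the floxed alleles. No label says which animal a library came from, so a p-value here reflects only how much the libraries vary.

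Endothelium lines every blood vessel of the liver. In the sinusoids, the capillaries between hepatocyte plates, it is thin, lacks a continuous basement membrane and is pierced by open pores, and its scavenger receptors clear waste molecules from blood. Arteries, portal veins and central veins are lined by a closed endothelium that stores von Willebrand factor, and sinusoids that lose their pores in liver injury are known to gain markers of that kind. The members were therefore read as sinusoidal markers (Stab1, Stab2, Lyve1, Clec4g and Oit3), large-vessel markers (Vwf and Cd34) and markers shared by both kinds of endothelium (Kdr, Pecam1 and Cdh5).

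Promoter sequences of 300 bases, from 250 before to 50 after the start of transcription, were found in the RefSeq table (GRCm38.p6) for 5 members: Stab1, Stab2, Clec4g, Kdr and Cd34. Each was searched on both strands for AGGAAG, a core recognised by ETS factors such as ERG and FLI1 that are active in endothelium, and for the GATA-type core AGATAA. The exact string AGGAAG, on either strand, was found in 4 of the 5, all except Kdr, against 35.4% of all 32851 promoters of that length. The exact string AGATAA, on either strand, was found in 0 of the 5, against 11.2% of all promoters. Other forms of ETS or GATA sites were not searched for, so a promoter without these strings can still hold such a site. The motif instances do not overlap each other except in Clec4g, where 2 copies of the ETS core share bases. A match is a string of letters and says nothing about binding. The promoters of Cd34, a large-vessel marker whose libraries did not overlap between the groups, and of Stab2, a sinusoidal marker whose libraries did, are printed 5′ to 3′ with the ETS core in capitals, which in both reads as its reverse complement. Cd34 lies at chr1:194938571-194938870 on the plus strand and Stab2 at chr10:87007893-87008192 on the minus strand.
Cd34: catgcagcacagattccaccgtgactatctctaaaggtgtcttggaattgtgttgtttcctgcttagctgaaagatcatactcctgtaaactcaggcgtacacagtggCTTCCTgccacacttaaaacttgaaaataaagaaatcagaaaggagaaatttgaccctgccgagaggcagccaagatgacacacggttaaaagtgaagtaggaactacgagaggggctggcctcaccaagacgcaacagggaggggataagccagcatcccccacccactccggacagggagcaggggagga
Stab2: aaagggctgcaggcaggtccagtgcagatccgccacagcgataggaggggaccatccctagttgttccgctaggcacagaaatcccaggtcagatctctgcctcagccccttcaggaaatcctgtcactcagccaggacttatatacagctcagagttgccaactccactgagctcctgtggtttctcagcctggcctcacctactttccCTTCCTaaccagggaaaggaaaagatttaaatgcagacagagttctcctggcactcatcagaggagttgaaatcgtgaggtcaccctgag

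Library totals ran from 42632491 to 48044181 reads in Pak4_KO and from 39603272 to 52521400 reads in WT. Pak4 itself stood at 1.37, 2.24 and 1.90 CPM (reads scaled to a common library size, with TMM factors) in Pak4_KO, against 5.93, 7.15 and 6.44 CPM in WT, which was lower by the edgeR test (log2 fold change -1.82, SE 0.24, adjusted p = 0.0169). The summed level of 14 hepatocyte genes was 110680 to 133897 CPM in Pak4_KO and 104564 to 136051 CPM in WT, so the labelled tissue had its defining transcripts in every library. On the second principal component of log2 CPM, with 25.0% of the variance, Pak4_KO replicate 1 (42.6) and WT replicate 3 (-46.8) stood farthest apart, with the other 4 libraries between -14.7 and 27.6. For Lyve1, Vwf and the ratio of Vwf to Pecam1 reads, results are given with and without Pak4_KO replicate 1. Fold changes of single genes outside the members are given over all 6 libraries only, including those highest in that library.

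Compared per transcript length, the sinusoidal markers Clec4g, Lyve1 and Stab2 had the highest mean levels of the members in both groups and the large-vessel markers the lowest, while the sinusoidal marker Oit3 lay below the shared markers Cdh5 and Pecam1. Length-scaled levels (TPM, from the authors) were highest for Clec4g, a C-type lectin of the sinusoids, at 32.6 ± 9.04 TPM in Pak4_KO and 27.7 ± 3.40 TPM in WT (SD, n = 3 each). Lyve1, a hyaluronan receptor, followed at 28.4 ± 14.4 TPM in Pak4_KO and 25.9 ± 4.97 TPM in WT. Stab2, Stab1 and Cdh5 lay close together, at 21.1 ± 6.18, 20.1 ± 5.06 and 19.5 ± 1.81 TPM in Pak4_KO and at 18.7 ± 1.88, 16.9 ± 1.31 and 17.9 ± 2.81 TPM in WT. Below them in both groups came Pecam1, Oit3, Kdr, Vwf and Cd34, in that order. Vwf stood at 4.11 ± 1.55 TPM in Pak4_KO and 1.88 ± 0.522 TPM in WT, and Cd34 at 1.62 ± 0.545 TPM in Pak4_KO and 0.792 ± 0.209 TPM in WT. In Pak4_KO, Vwf over Cd34 was the single step in this order at which the libraries of neighbouring genes did not overlap. In WT the steps from Lyve1 to Stab2, Stab1 to Pecam1, Kdr to Vwf and Vwf to Cd34 were of that kind, and the order of Stab1 and Cdh5 was the other way round.

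No member was called in Pak4_KO against WT: 0 of 10 had an edgeR adjusted p under 0.05, where 0.469% of the 16197 genes tested did. Vwf and Cd34 alone had an unadjusted p under 0.05, a level that 8.21% of all tested genes reached, and the DESeq2 Wald test called 1 member, Vwf. The fitted log2 fold changes were positive for all 10 members, with a median of 0.15, against 0.004 over all genes tested. The sign of 5 of the smaller ones, for Stab1, Stab2, Lyve1, Kdr and Cdh5, turned in at least 1 alternative fit. The members were read in the same libraries, so their signs are not independent of each other. In whole liver, a change in the number of cells of a type and a change in RNA per cell cannot be told apart.

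**Figure D1:**
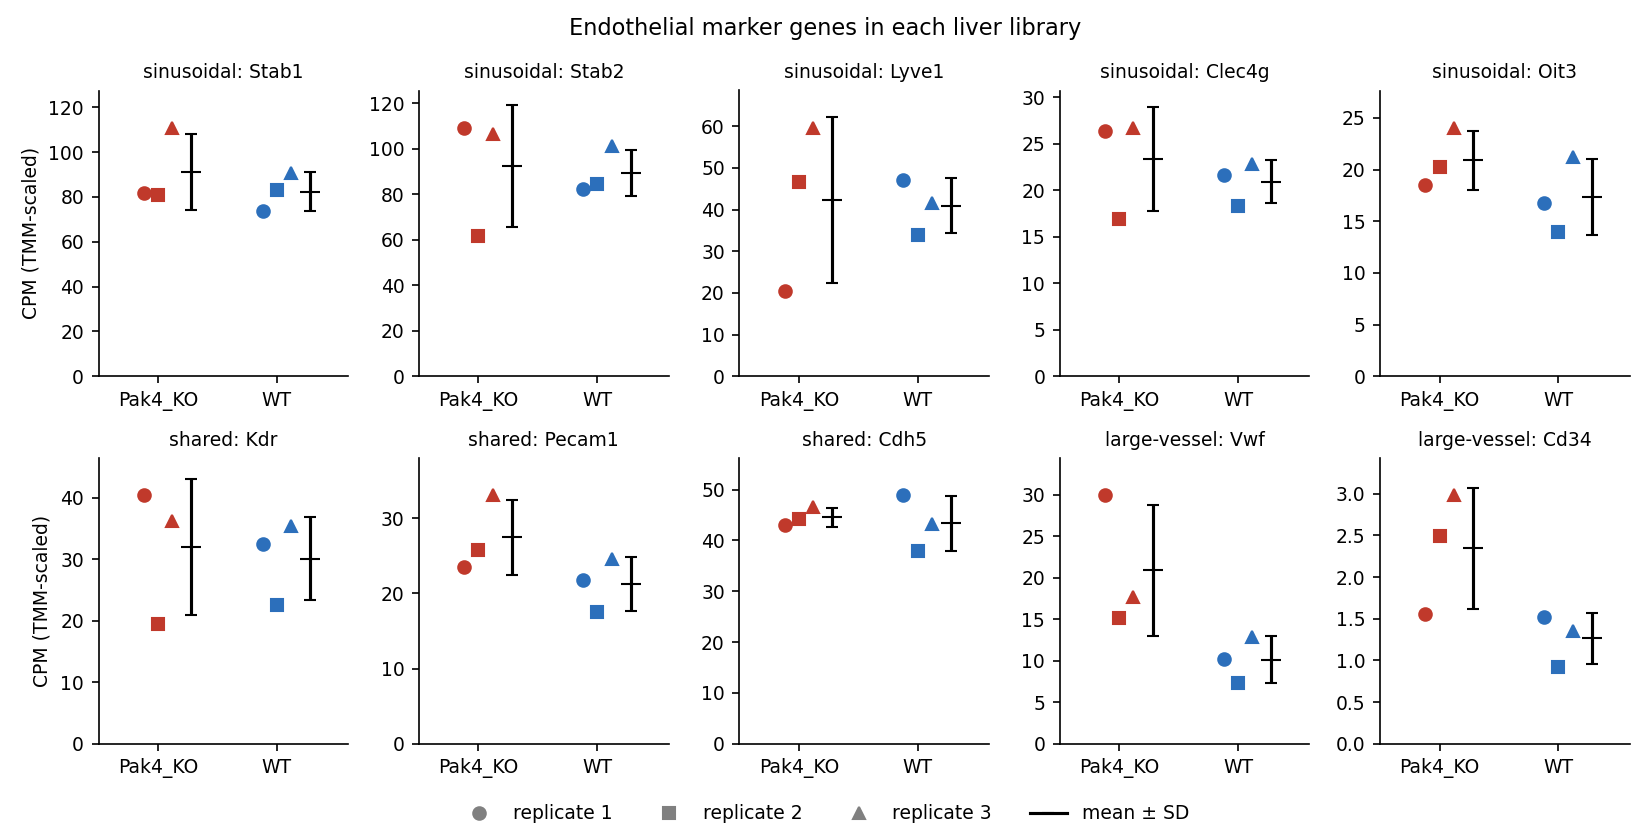
TMM-scaled CPM of the 10 members in each library, Pak4_KO left and WT right, with marker shape giving the replicate number and the black bar the mean ± SD of 3 libraries. The Pak4_KO and WT points overlap in 8 panels and do not overlap for Vwf and Cd34.

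The libraries of each of the 5 sinusoidal markers overlapped between the groups, and none of the 5 passed the test. Stab1 encodes stabilin-1, a scavenger receptor for oxidised lipoproteins and matrix fragments. It had 81.8, 81.0 and 111 CPM in Pak4_KO, against 73.5, 82.9 and 90.7 CPM in WT. The 2 lower Pak4_KO libraries fell inside the WT range and 1 lay above it, and the log2 fold change was 0.15 (95% interval -0.22 to 0.51, edgeR adjusted p = 0.898).

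Stab2 encodes stabilin-2, the main receptor by which sinusoids take up hyaluronan from blood. It had 109, 61.7 and 106 CPM in Pak4_KO, against 82.2, 84.6 and 101 CPM in WT. Pak4_KO replicate 2 was lower than every WT library and the other 2 Pak4_KO libraries were higher than every WT library, which left a log2 fold change of 0.05 (95% interval -0.45 to 0.55, adjusted p = 0.990).

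Lyve1, a hyaluronan-binding receptor of sinusoids and lymphatic vessels, had the widest spread of the members within Pak4_KO, though not within WT. It stood at 20.5, 46.5 and 59.6 CPM in Pak4_KO, against 47.2, 34.007 and 41.7 CPM in WT. Its highest Pak4_KO library was 2.92-fold above its lowest, where the WT libraries spanned 1.39-fold. The low value was Pak4_KO replicate 1, below every WT library. The log2 fold change was 0.04 (95% interval -0.73 to 0.81, adjusted p = 0.996), and it was 0.37 without Pak4_KO replicate 1 and -0.29 without Pak4_KO replicate 3. Lyve1 is the only member on the chromosome of Pak4 (chromosome 7, 110850607 to 110862953, GRCm38), 82.3 Mb away.

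Clec4g, which encodes the sinusoidal lectin also called LSECtin, had 26.4, 16.9 and 26.7 CPM in Pak4_KO, against 21.7, 18.3 and 22.8 CPM in WT. As with Stab2, Pak4_KO replicate 2 was below the WT range and the other 2 Pak4_KO libraries above it (log2 fold change 0.16, 95% interval -0.30 to 0.61, adjusted p = 0.923). Oit3, which encodes a zona pellucida domain protein of sinusoids, had 18.5, 20.2 and 24.0 CPM in Pak4_KO, against 16.8, 13.9 and 21.2 CPM in WT. Here 1 Pak4_KO library lay above the WT range and 2 within it (log2 fold change 0.27, 95% interval -0.16 to 0.70, adjusted p = 0.798). Over the 5 sinusoidal markers the median log2 fold change was 0.15, and it was -0.019 without Pak4_KO replicate 3, 0.068 without WT replicate 2 and 0.27 without Pak4_KO replicate 2. The intervals leave room for changes of up to 1.76-fold upward (Lyve1) and to 0.605 of the WT level downward (Lyve1), and for Stab1 for no more than 1.43-fold upward.

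Markers carried by sinusoids and vessels alike also overlapped between the groups. Cdh5 encodes VE-cadherin, the adhesion protein of endothelial junctions. It had 43.0, 44.1 and 46.6 CPM in Pak4_KO, against 48.9, 38.0 and 43.2 CPM in WT. All Pak4_KO values lay inside the WT range, and Cdh5 had the narrowest interval of the members, with a log2 fold change of 0.04 (95% interval -0.26 to 0.34, adjusted p = 0.980).

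Pecam1, which encodes the adhesion molecule CD31, had 23.5, 25.8 and 33.1 CPM in Pak4_KO, against 21.8, 17.5 and 24.6 CPM in WT. The 2 upper Pak4_KO libraries were above the WT range (log2 fold change 0.37, 95% interval -0.05 to 0.79, unadjusted p = 0.0784, edgeR adjusted p = 0.669). Kdr, which encodes the VEGF receptor VEGFR2, had 40.4, 19.5 and 36.1 CPM in Pak4_KO, against 32.4, 22.5 and 35.4 CPM in WT. Its lowest library of all was Pak4_KO replicate 2 and its highest Pak4_KO replicate 1 (log2 fold change 0.09, 95% interval -0.55 to 0.73, adjusted p = 0.977). The median over the 3 shared markers was 0.09.

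The large-vessel markers had the largest fitted changes of the members, without passing the test over all genes. Vwf encodes von Willebrand factor, the platelet-binding clotting protein stored in vessel endothelium. It had 1268, 715 and 880 reads in Pak4_KO, against 406, 345 and 648 reads in WT, or 29.9, 15.1 and 17.6 CPM in Pak4_KO, against 10.2, 7.26 and 12.9 CPM in WT. Every Pak4_KO library was above every WT library, with Pak4_KO replicate 1 far above the other 2. The log2 fold change was 1.04 (SE 0.30, 95% interval 0.36 to 1.72), or 2.06-fold, with an unadjusted p of 0.00739 and an edgeR adjusted p of 0.303. Without Pak4_KO replicate 1 it was 0.69 (adjusted p = 0.452). The DESeq2 Wald test gave Vwf an adjusted p of 0.0405, in a fit that called 334 genes where edgeR called 76.

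Cd34 encodes a sialomucin of vessel endothelium that also marks blood progenitors and fibroblasts of the portal tract. It was the member with the fewest reads, 66, 118 and 149 in Pak4_KO, against 60, 44 and 68 in WT. In CPM this was 1.56, 2.50 and 2.98 in Pak4_KO, against 1.51, 0.926 and 1.35 in WT, so the groups did not overlap, but the lowest Pak4_KO library and the highest WT library were close to each other. The log2 fold change was 0.89 (SE 0.33, 95% interval 0.14 to 1.65), or 1.86-fold, with an unadjusted p of 0.0249 and an edgeR adjusted p of 0.50. With both members higher in every Pak4_KO library, 2 of 10 members did not overlap in that direction, against 7.35% of all genes tested, and 0 of 10 were lower without overlap, against 6.06% of all genes. Cd34 reached its highest level in Pak4_KO replicate 3 and Vwf in Pak4_KO replicate 1, where Cd34 was lowest of the group.

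**Figure D2:**
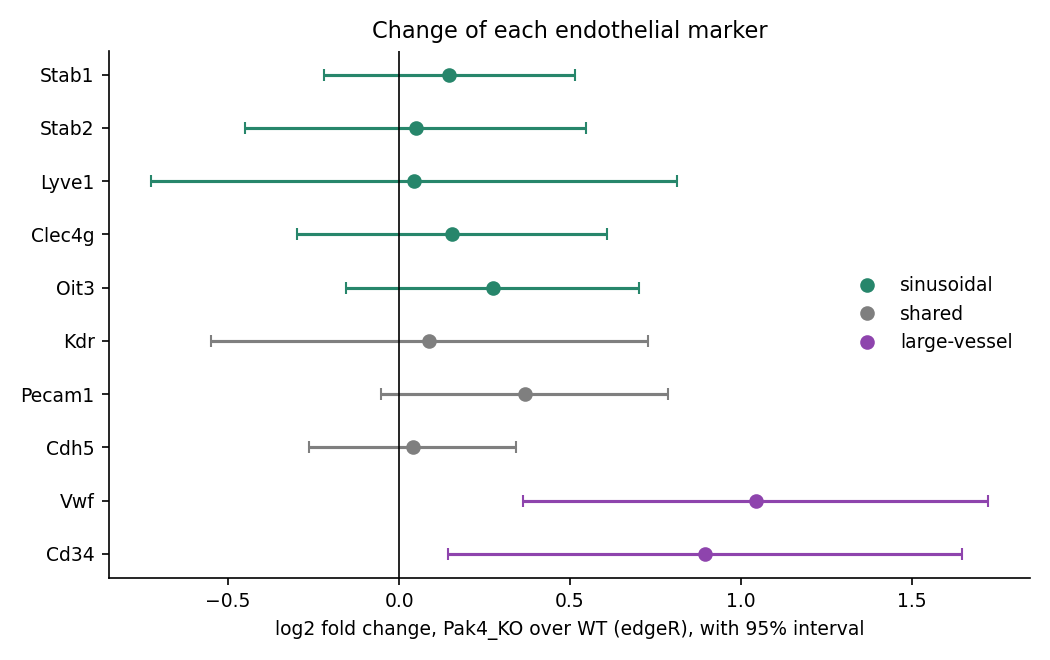
Fitted log2 fold change of each member, Pak4_KO over WT, with its 95% interval from the edgeR fit, coloured by kind of endothelium. Intervals of the 5 sinusoidal and 3 shared markers include 0, and those of Vwf (0.36 to 1.72) and Cd34 (0.14 to 1.65) do not, before any adjustment for the number of genes.

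The members did not move as a block from library to library. WT replicate 2 held the lowest WT value of 8 members, all except Stab1 and Stab2, and Pak4_KO replicate 3 held the highest Pak4_KO value of 7. In Pak4_KO replicate 2 the values of Stab2, Clec4g and Kdr were low together, at -0.53, -0.37 and -0.62 on the log2 scale relative to each gene's mean over 6 libraries, while Lyve1 (0.24) and Cd34 (0.56) were above their means there. In Pak4_KO replicate 1 it was the reverse, with Lyve1 at -0.95 and Cd34 at -0.10, Kdr at 0.43 and Vwf at 1.09. Genes of stellate cells, the vitamin A storing pericytes of the sinusoid, were chosen after their values were seen for a look at the same library. Reln had 92.5, 38.2 and 117 CPM in Pak4_KO, against 98.4, 57.5 and 106 CPM in WT. Ecm1 had 15.9, 5.31 and 23.6 CPM in Pak4_KO, against 17.8, 15.3 and 17.2 CPM in WT. Both were lowest in Pak4_KO replicate 2, the library with low Stab2, Clec4g and Kdr. Not every stellate gene was low there against WT. Lrat (13.2 CPM) and Col3a1 (29.7 CPM) in that library were above every WT library, which reached at most 10.3 and 28.2 CPM. Within Pak4_KO, Lrat and Col3a1 were also lowest in replicate 2. The 15 stellate genes summed to 235 CPM in that library, below every WT library (266 to 391 CPM). The part of stellate cells in the values of the members was not tested.

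**Figure D3:**
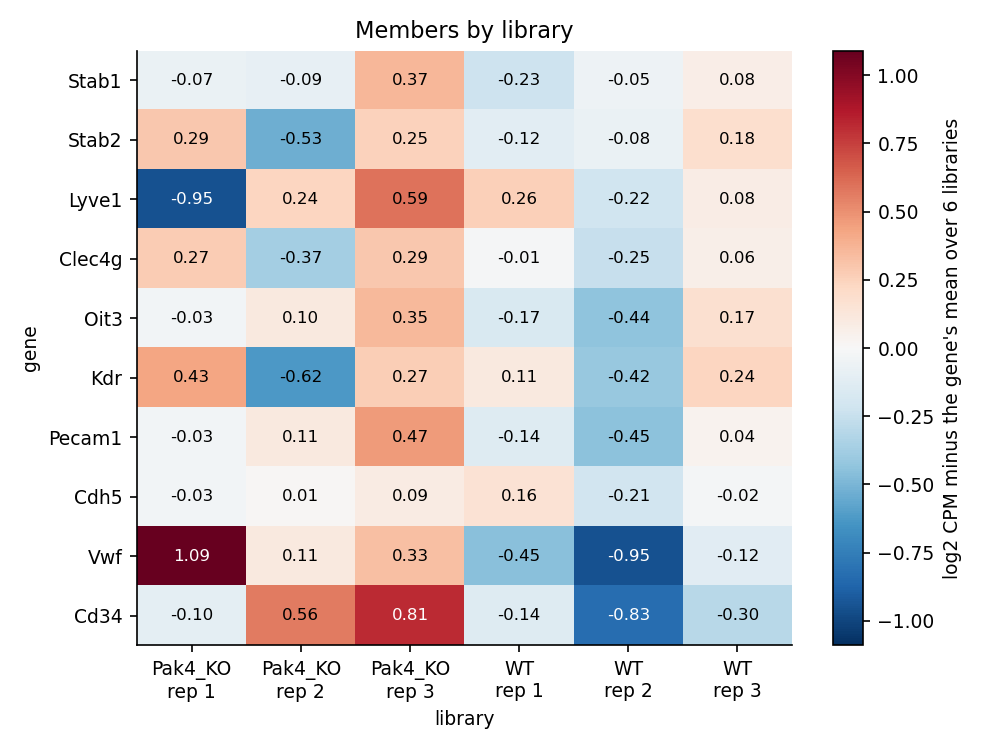
log2 CPM of each member (rows) in each library (columns, Pak4_KO left), minus the gene's mean over the 6 libraries. Vwf is high in Pak4_KO replicate 1 (1.09), where Lyve1 is low (-0.95), and Stab2 and Kdr are low in Pak4_KO replicate 2 (-0.53 and -0.62).

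Reads of the other members were also set against those of Pecam1 in the same library, which needs no scaling between libraries. Vwf had 1.27, 0.586 and 0.532 reads per Pecam1 read in Pak4_KO, against 0.471, 0.415 and 0.523 in WT. The groups did not overlap, but Pak4_KO replicate 3 and WT replicate 3 nearly met. The mean log2 ratio was -0.44 ± 0.69 in Pak4_KO and -1.10 ± 0.17 in WT (SD, n = 3 each), a difference of 0.65 with a two-sided exact permutation p of 0.10, the smallest that 3 against 3 allows, and 0.450 after adjustment over the 9 ratios. Without Pak4_KO replicate 1 the difference was 0.26.

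Cd34 had 0.0663, 0.0967 and 0.0901 reads per Pecam1 read in Pak4_KO, against 0.0696, 0.0529 and 0.0549 in WT, which overlapped (log2 difference 0.50, exact permutation p = 0.20). For the other 7 members the mean difference lay between -0.44 for Lyve1 and -0.08 for Oit3. Pecam1, which divides every ratio, had itself a fitted log2 fold change of 0.37, which lowers all 9 differences alike, so their sign is no separate result, and the fitted changes of these 7 members were positive. The groups overlapped for each of the 7, with exact permutation p-values from 0.20 to 0.50. Stab1 stood at 3.48, 3.14 and 3.35 reads per Pecam1 read in Pak4_KO, against 3.38, 4.74 and 3.68 in WT. Stab2 stood at 4.65, 2.39 and 3.22 in Pak4_KO, against 3.78, 4.83 and 4.1025 in WT. No ratio passed the test, and the design could not have given a p under 0.05.

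**Figure D4:**
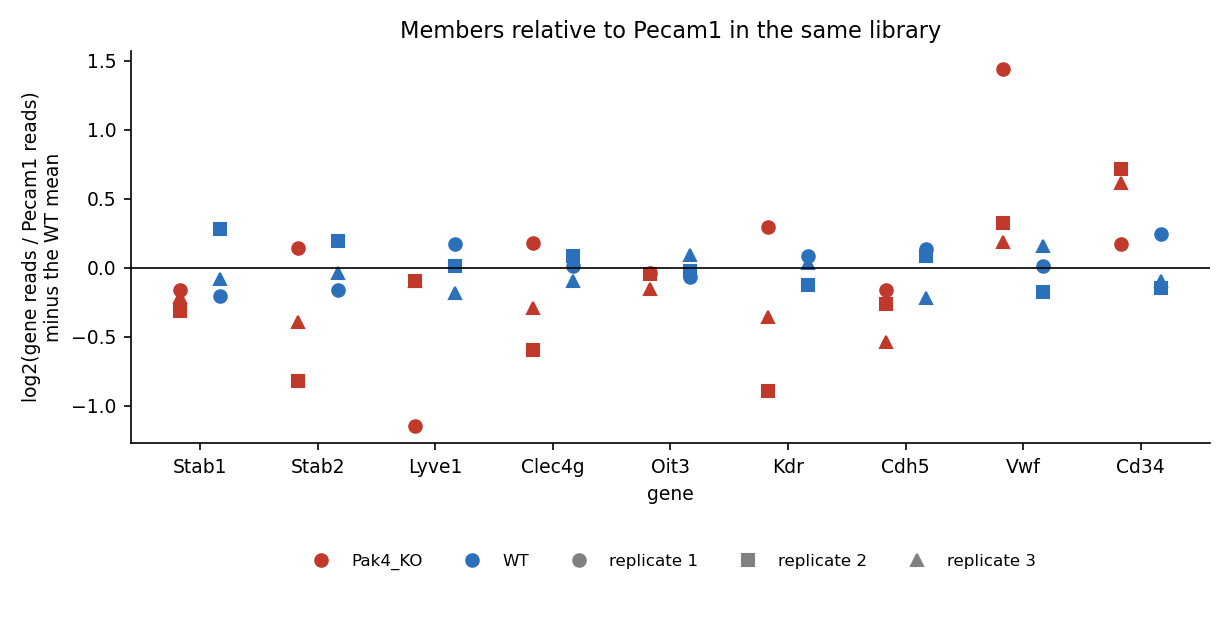
log2 ratio of each member's reads to those of Pecam1 in the same library, minus the WT mean of that ratio; Pak4_KO points are left of WT points for each gene. Vwf lies above the WT points in all 3 Pak4_KO libraries, by the most in replicate 1, and the other members overlap between the groups.

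Further endothelial genes were read from 3 lists, chosen with earlier results of these data known. They hold 87 genes and 82 tested ones, and 0 of these were called by edgeR in either direction. Of the 82, the fitted change was positive for 62 and negative for 20 (median 0.24 on the log2 scale), where 50.7% of all genes tested were positive. Libraries did not overlap, with Pak4_KO above WT, for 7.32% of them, close to the 7.35% of all genes. At an unadjusted p under 0.05, 5 were higher and 3 lower. At that level 4.51% of all genes were higher and 3.69% lower. Genes of the same cell type can rise and fall together in a library. Counts of signs, here and in the lists below, are therefore not counts of independent results.

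Among 22 tested genes of sinusoidal identity, 15 were positive and 7 negative, with a median of 0.17. The smallest raw p belonged to Ehd3, an endocytic recycling protein, with 43.4, 28.2 and 33.2 CPM in Pak4_KO, against 24.9, 24.6 and 30.3 CPM in WT (log2 fold change 0.39, edgeR adjusted p = 0.646). The next was Sele, the inducible leukocyte adhesion molecule E-selectin (log2 fold change -1.29, adjusted p = 0.667), whose WT level rested on replicate 1 at 4.06 CPM. Gata4 and Maf, transcription factors of sinusoidal fate named after their values were seen, had log2 fold changes of 0.13 and 0.28 (adjusted p = 0.952 and 0.882). Some genes of this list are also made by other liver cells.

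Among 27 tested genes of large-vessel or capillarised endothelium, 20 were positive and 7 negative, with a median of 0.22. Lama4, a laminin chain of vessel basement membrane, had 6.54, 6.14 and 8.18 CPM in Pak4_KO, against 3.94, 2.80 and 3.04 CPM in WT. Each Pak4_KO library was above each WT library, with a log2 fold change of 1.09 (SE 0.21, unadjusted p = 0.000806, edgeR adjusted p = 0.103). Clu, a chaperone that hepatocytes secrete in quantity, had the next smallest raw p. It was lower in each Pak4_KO library, at 820 to 1005 CPM in Pak4_KO and 1173 to 1337 CPM in WT (log2 fold change -0.40, adjusted p = 0.505). Other basement membrane genes of this list, named after their values were seen, changed less than Lama4. Their log2 fold changes were 0.30 for Nid1, 0.10 for Lamb1, -0.05 for Col4a1 and -0.23 for Col4a2.

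Of 33 tested pan-endothelial genes 27 were positive and 6 negative, with a median of 0.29. Gpihbp1, which carries lipoprotein lipase to the capillary lumen, had 10.2, 10.3 and 14.5 CPM in Pak4_KO, against 6.59, 5.66 and 8.73 CPM in WT, without overlap (log2 fold change 0.73, SE 0.22, adjusted p = 0.354). Hhex, a homeobox factor of endothelial progenitors that hepatocytes also express, had 0.826, 1.21 and 3.20 CPM in Pak4_KO, against 5.88, 5.28 and 5.23 CPM in WT (log2 fold change -1.64, SE 0.45, adjusted p = 0.275).

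Ligands and other signals around the endothelium were not called either. Of 9 tested signals made by endothelium, 8 were positive, with a median of 0.29. Wnt2 and Rspo3, which keep pericentral hepatocytes in their zone, are among them and were named after their values were seen, at log2 fold changes of 0.40 and 0.18 (adjusted p = 0.831 and 0.900). By the smallest raw p the named ones were Dkk3 (0.56, adjusted p = 0.727) and Bmp2, an inducer of hepcidin (0.38, adjusted p = 0.754). Of 13 tested ligands for endothelial receptors 4 were positive and 9 negative, with a median of -0.23.

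Vegfb, a ligand of VEGFR1, had 1.72, 1.23 and 1.24 CPM in Pak4_KO, against 0.656, 1.09 and 0.775 CPM in WT (log2 fold change 0.72, adjusted p = 0.618). Vegfa, the main ligand of Kdr, named after its values were seen, had 90.5, 65.4 and 83.1 CPM in Pak4_KO, against 61.7, 68.9 and 72.7 CPM in WT (log2 fold change 0.23, adjusted p = 0.767). Of 7 tested lymphatic genes 3 were positive and 4 negative, with a median of -0.05. This list shares Flt4 with the list of sinusoidal identity and Reln with that of stellate cells. Flt4, the receptor VEGFR3 that sinusoids also carry, had 35.4, 28.3 and 46.9 CPM in Pak4_KO, against 32.3, 24.6 and 35.2 CPM in WT (log2 fold change 0.26, adjusted p = 0.834). Pdpn, podoplanin, had at most 21 reads in any library.

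Markers of other cells that carry some of the same transcripts were read beside Vwf and Cd34. Megakaryocytes and platelets also hold Vwf and Pecam1. Of their 6 tested genes 1 was positive and 5 negative, and the summed level of the 12 genes was 28.8 to 34.01 CPM in Pak4_KO and 26.3 to 31.2 CPM in WT. By the smallest raw p the named ones were the platelet chemokine Ppbp (log2 fold change -0.68, adjusted p = 0.711) and the platelet glycoprotein Gp5 (-0.79, adjusted p = 0.794). The defining gene Gp1ba had 0 reads in every library, and Pf4 stood at 0.849, 0.995 and 0.50 CPM in Pak4_KO, against 1.29, 0.842 and 0.676 CPM in WT. The sum was highest in Pak4_KO replicate 3, where Ppbp (0.50 CPM), Gp5 (0.18 CPM) and Pf4 (0.50 CPM) were lowest of the 6 libraries. The sum therefore rests mostly on other genes of the list and does not follow these markers.

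Portal fibroblasts and mesothelium can hold Cd34. Of their 7 tested genes 3 were positive and 4 negative, and the summed level of all 12 was 11.7 to 17.4 CPM in Pak4_KO and 9.48 to 14.2 CPM in WT. Dpt, a fibroblast matrix protein, had 5.03, 6.67 and 4.44 CPM in Pak4_KO, against 2.40, 2.57 and 3.66 CPM in WT, without overlap (log2 fold change 0.90, adjusted p = 0.288). Msln, a mesothelial marker, had 0.519, 0.677 and 0.460 CPM in Pak4_KO, against 2.98, 1.07 and 0.875 CPM in WT, also without overlap (log2 fold change -1.56, adjusted p = 0.401). None of the 12 genes of this list had 0 reads in all libraries. The part of these cells in the Cd34 values was not tested.

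Cholangiocytes line the bile ducts that run beside portal vessels, and 6 of their 7 tested genes were positive, with a median of 0.75 and 0 called. Their 8 genes summed to 54.4 to 83.8 CPM in Pak4_KO and 41.1 to 59.9 CPM in WT, and Pkhd1, a cilium protein, had 15.5, 14.7 and 18.8 CPM in Pak4_KO, against 11.4, 10.3 and 10.9 CPM in WT (log2 fold change 0.59, adjusted p = 0.243). Epcam, an epithelial adhesion protein, had 2.41, 1.42 and 2.04 CPM in Pak4_KO, against 1.03, 0.926 and 1.03 CPM in WT (log2 fold change 0.97, adjusted p = 0.344). Smooth muscle genes, which belong to larger vessel walls, summed to 4.80 to 16.4 CPM in Pak4_KO and 8.21 to 9.53 CPM in WT, with 4 of 4 tested ones positive. Among them the contractile genes Myh11 and Acta2 had log2 fold changes of 0.67 and 0.61 (adjusted p = 0.842 and 0.874). Myh11 had 4.74, 6.58 and 0.940 CPM in Pak4_KO, against 2.40, 2.63 and 2.64 CPM in WT. Acta2 had 2.78, 3.13 and 0.560 CPM in Pak4_KO, against 1.99, 1.26 and 0.994 CPM in WT. Pak4_KO replicate 3 was below every WT library for Myh11, Acta2 and the summed level.

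Stellate cell genes summed to 235 to 466 CPM in Pak4_KO and 266 to 391 CPM in WT, with 9 of 15 positive. Lrat, the enzyme that stores vitamin A as ester, had 19.2, 13.2 and 15.6 CPM in Pak4_KO, against 10.3, 8.12 and 7.91 CPM in WT, without overlap (log2 fold change 0.86, adjusted p = 0.152). Col3a1, a fibrillar collagen, was also without overlap, at 69.8, 29.7 and 47.5 CPM in Pak4_KO, against 26.8, 26.9 and 28.2 CPM in WT (log2 fold change 0.84, adjusted p = 0.383). Erythroid genes summed to 206 to 322 CPM in Pak4_KO and 206 to 403 CPM in WT, with 3 of 6 positive, among them Klf1 (log2 fold change 0.40, adjusted p = 0.820), and Alas2 on the negative side (-0.24, adjusted p = 0.849). Kupffer cell and macrophage genes, by contrast, were positive in 0 of 14, with a median of -0.21 and a sum of 494 to 603 CPM in Pak4_KO and 610 to 777 CPM in WT. Mpeg1, a macrophage pore-forming protein, had 75.8, 61.8 and 69.0 CPM in Pak4_KO, against 119.7, 143.8 and 94.5 CPM in WT (log2 fold change -0.79, adjusted p = 0.143), and Cd68, a lysosomal glycoprotein, stood at 6.41 to 7.15 CPM in Pak4_KO and 7.18 to 13.8 CPM in WT (log2 fold change -0.66, adjusted p = 0.492). Of the 14 hepatocyte genes the named ones were Serpina1c and Serpina1a, near-identical antitrypsin paralogs whose reads the counting could split, at log2 fold changes of -0.39 and -0.36 (adjusted p = 0.630 and 0.650). The part of these cells in the values of Vwf and Cd34 was not tested.

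**Figure D5:**
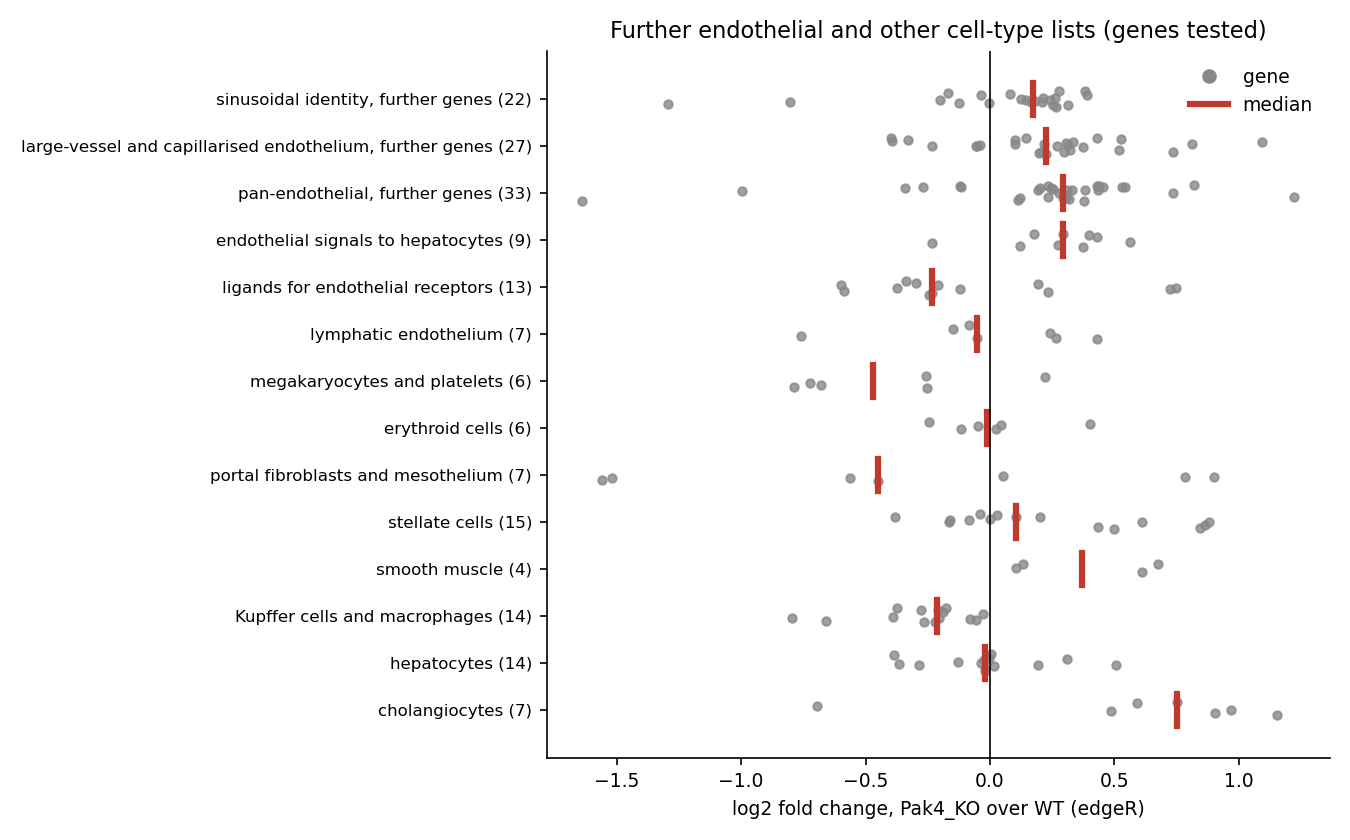
Fitted log2 fold change, Pak4_KO over WT, of each tested gene (grey points, spread vertically for legibility) in the further endothelial lists and the lists of other cell types, with the number tested in brackets and the median in red. Medians of the 3 further endothelial lists lie at 0.17, 0.22 and 0.29, and that of the Kupffer cell list at -0.21.

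The genes whose profile over the 6 libraries was most like that of Vwf were found among 11242 named protein-coding genes with a mean of at least 1 CPM, by the root mean square difference of log2 CPM centred on each gene's mean. The nearest was Itih5, an inter-alpha inhibitor heavy chain, at a difference of 0.14, with 66.1, 35.2 and 30.8 CPM in Pak4_KO, against 21.8, 16.2 and 24.3 CPM in WT. Tbc1d8, with a Rab GTPase activating domain, followed at 0.21, with 54.8, 34.2 and 30.3 CPM in Pak4_KO, against 27.2, 16.7 and 26.3 CPM in WT. Cyp3a44, a cytochrome P450, came next at 0.22, with 48.9, 32.9 and 46.3 CPM in Pak4_KO, against 18.8, 15.2 and 30.0 CPM in WT. None of these 3 was called, with edgeR adjusted p-values of 0.270, 0.465 and 0.257. The profile of Vwf includes its difference between the groups, so the higher Pak4_KO values of these genes follow from the choice. Among the members the nearest to Vwf was Clec4g at 0.52 and the farthest Lyve1 at 0.94.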

How the data were processed

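Whole-liver RNA of 3 Pak4_KO and 3 WT libraries was sequenced from a stranded mRNA kit, per the labels' protocols. HISAT2 2.1.0, Bowtie2 2.3.4.1 and StringTie 2.1.3b, with build mm10, are named in the submitters' processing notes. The sources used here do not give the strand setting of the counting or how multiply matching reads were handled. The deposited table holds whole-number read counts per gene, not normalized, per the file headers. It also holds TPM from the authors, used here for levels between genes and in alternatives, and FPKM that the authors deposited, which were not used.

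Counts were fitted with edgeR 4.0.16 (R 4.3.3) after filterByExpr and TMM scaling. Its two-sided quasi-likelihood F-test compared Pak4_KO with WT over all 6 libraries, with Benjamini-Hochberg adjustment over 16197 genes and calls under 0.05. Adjusted p-values in the report come from this fit unless another test is named. Intervals are 95%. Log2 CPM use a prior count of 2, and read ratios add 0.5 reads to each gene on the log scale. Member reads ran from 44 to 5543 per library. Positions are from RefSeq GRCm38.p6, which matched 45679 of 45777 identifiers. In it 7 of the 10 members overlap another gene, none with more than 106 reads in a library, and antisense reads cannot be told apart.

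The members and gene lists were chosen with earlier results of these data known. Some lists share genes, such as Flt4, Reln and Acta2. Named genes are the members, Pak4, the 2 genes of smallest raw p in each further list, since none held a call, and the 3 genes most like Vwf. Genes named outside this rule were chosen after their values were seen. They are Gata4, Maf, Nid1, Lamb1, Col4a1, Col4a2, Wnt2, Rspo3, Vegfa, Reln, Ecm1, Pf4 and Gp1ba. A ligand that the rule names is not reported here. Simulated counts with known changes were also fitted, and the share of those changes that was called is not given here. Alternatives were other scalings, other filters, DESeq2 1.42.0, limma-voom (limma 3.58.1), limma-trend on TPM with a pseudocount of 1 or 0.1, a replicate block, each library left out, another placing of Kdr, Pecam1 and Cdh5, and other forms of the Vwf ratio.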

Additional observations from a re-analysis of the deposited data

How the results depend on the processing

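Vwf kept a positive log2 fold change in all 15 alternative fits, from 0.69 to 1.26, and Cd34 in all 15, from 0.53 to 1.12. The members called by edgeR numbered 0, and 1 (Vwf, adjusted p = 0.0405) by the DESeq2 Wald test, with adjusted p from 0.205 to 0.669 for Vwf in the other 14. The count of called genes was 76, against 44 with at least 10 reads in every library, 334 by DESeq2 and 37 to 81 without 1 library. The median of the large-vessel markers was 0.97, against 0.67 with log2(TPM + 1) and 0.63 with Pecam1 and Cdh5 added to it. The sinusoidal markers' median was 0.15, and -0.019 to 0.27 without 1 library. The shared markers' median was 0.09, and -0.048 to 0.35 without 1 library. Of 150 member fold changes recomputed, 13 turned sign: Lyve1 with limma-voom (-0.069) and the replicate block (-0.061), and otherwise fits without 1 library, which ranged from -0.019 to 0.23 for Stab1, from -0.088 to 0.27 for Stab2, from -0.29 to 0.37 for Lyve1, from -0.11 to 0.35 for Kdr and from -0.048 to 0.12 for Cdh5. For these reversals the cause was not tested. Deviations of same-numbered libraries from their group means correlated at 0.07, -0.20 and 0.15, and not every library correlated best with its own number. With 3 libraries per group, these correlations cannot exclude a pairing. The replicate block called 73 genes and 0 members, with Vwf at 1.02 (adjusted p = 0.205). With that block, the difference in the Vwf ratio to Pecam1 was 0.65 (exact permutation p = 0.25, the smallest possible). Over Pecam1, the Vwf ratio difference was 0.26 to 0.89 without 1 library, 0.97 over Cdh5 and 0.61 on TPM. Cd34 had the fewest reads of the members.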
